A study of Danio rerio with 15 samples.

Results

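In the adult zebrafish telencephalon, quiescent radial glia (qRG) were compared with progenitors that have entered the cell cycle. Of the 15 libraries of the series, 9 belong to this comparison: the 3 qRG libraries, whose table columns carry the name of the quiescent cells, and the other 6 adult libraries, pooled as the activated group. All were made from wild-type fish aged 3 months that carried both a her4:drfp and an mcm5:egfp transgene, and each replicate pooled 20 telencephali. By the sorting protocol, qRG were the cells with red fluorescence alone, activated radial glia (aRG) those with both colours and activated neural progenitors (aNP) those with green alone, so the activated group joins aRG and aNP. It was not parted into them, because the names of those 6 columns may be mixed up. The remaining 6 libraries of the series came from gfap:egfp-positive cells of larval heads at 7 days post-fertilization, 15 heads per library, with 3 notch3+/+ and 3 notch3-/- libraries (the fh332 allele).

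Radial glia line the ventricle of the adult fish pallium and act as its neural stem cells. Most of them rest outside the cell cycle, a state that Notch signalling helps to keep, and an activated one divides either to renew itself or to give rise to a neural progenitor that no longer has glial traits. her4 is a Notch target gene expressed in radial glia, and mcm5 encodes a subunit of the helicase that licenses DNA replication, which is why its promoter marks proliferating cells. The gates rest on fluorescent proteins, which can outlast the activity of the promoter, and not on the transcripts counted here. The deposited table lists Ensembl transcripts without gene names, and 0 of its identifiers matched the gene name tables at hand. The cell types could therefore not be checked against their defining markers, and transcripts are described by identifier, position on the Zv9 assembly, length and level.

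The qRG libraries held 48558669, 45607676 and 49601032 counted reads in replicates 1, 2 and 3, and the activated libraries held 19555038 to 66966289. The activated libraries, numbered in the order of their columns, were far less alike than the qRG libraries. Libraries 3, 4 and 6 had the fewest reads of the 9. Yet they had the most transcripts at 1 CPM (reads per 1000000 counted, here before TMM scaling) or more, 25281 to 26724. Activated libraries 1, 2 and 5 had 16841 to 17278, and qRG had 18454 to 20630. TMM factors scale a library by the bulk of its transcripts. They were 1.44, 1.97 and 1.64 in activated libraries 3, 4 and 6, whereas every other library had a factor between 0.682 and 0.921. The reads on mitochondrial transcripts made up 2.88% to 3.90% of each library. Pearson's r between libraries over log2 CPM of the tested transcripts was 0.931 to 0.948 for the 3 pairs of qRG libraries, 0.824 to 0.963 (median 0.913) for the 15 activated pairs and 0.855 to 0.936 (median 0.908) for the 18 pairs across the groups.

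The first principal component of the 500 most variable transcripts followed this split inside the activated group. It did not follow the division of qRG from the pooled activated libraries. It held 43.3% of the variance, of which the group explained 1.35%, and ran from -38.6 in activated library 1 to 49.6 in activated library 4, with qRG between -12.6 and 1.67. The second component (29.0%) set activated library 5, at -63.6, apart from the other 8 libraries, which lay between -16.5 and 23.7. The third (12.2%) placed the 3 qRG libraries between -23.1 and -17.5 and the activated libraries between -9.21 and 25.6, and the group explained 68.5% of it. Among the 200 transcripts with the largest spread in the activated group at a mean of at least 1 log2 CPM, 110 were highest in activated libraries 4, 5 and 6, 77 in libraries 3, 4 and 6, and 11 in libraries 1, 2 and 3. Which part of this spread comes from the difference between aRG and aNP and which from library preparation cannot be told apart.

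**Figure D1:**
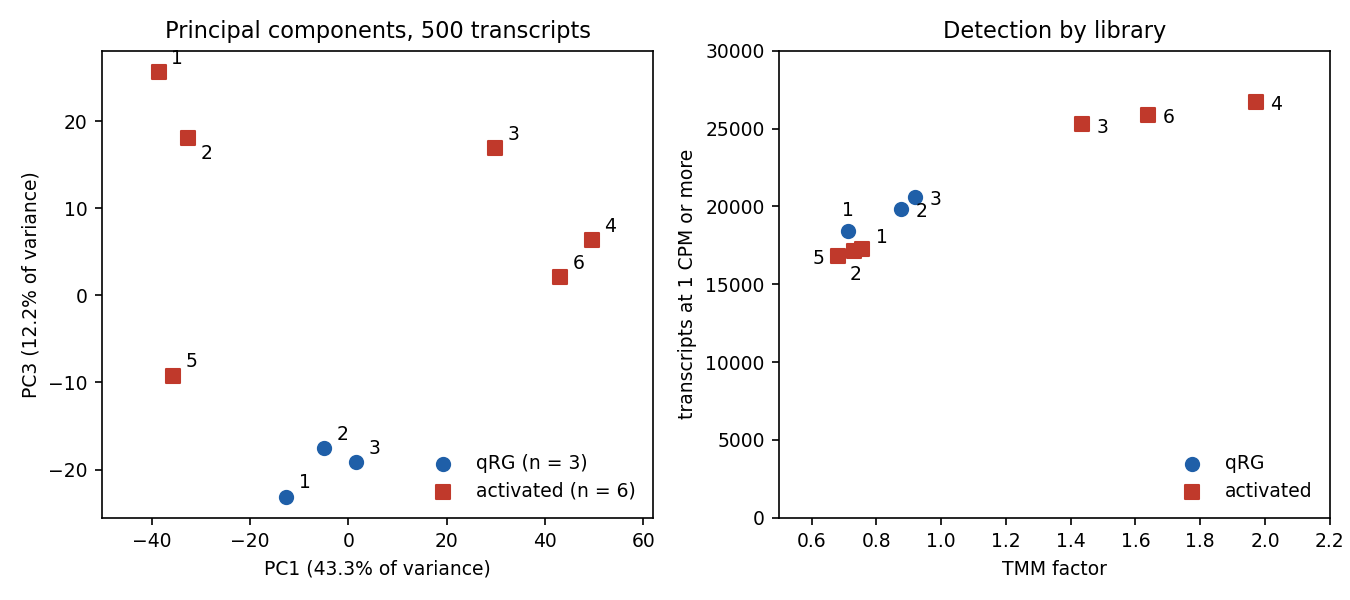
Left, each adult library on principal components 1 and 3 of log2 CPM, with the numbers of the libraries. Right, the number of transcripts at 1 CPM or more, before TMM scaling, against the TMM factor. The 3 qRG libraries (blue) lie between -23.1 and -17.5 on component 3, while the 6 activated libraries (red) spread from -38.6 to 49.6 on component 1, and activated libraries 3, 4 and 6 stand apart on the right with TMM factors of 1.44 to 1.97.

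Against this spread, 154 transcripts differed between qRG and activated progenitors, and nearly all of them were higher in qRG. The quasi-likelihood test of edgeR on the raw counts of 27848 tested transcripts, with a Benjamini-Hochberg adjusted p under 0.05, called 153 transcripts higher in qRG and 1 lower (0.553% of those tested in either direction, 0.549% higher and 0.00359% lower). At an unadjusted p under 0.05 there were 1420 higher and 988 lower transcripts. The p-values rest on the spread between libraries within each group, which in the activated group includes any difference between aRG and aNP. The libraries came from 3 independent experiments. The test treats the 9 libraries as independent, although libraries sorted in 1 experiment may share a pool of fish. A transcript can be higher in these bulk samples because more of the sorted cells hold it or because each cell holds more of it, and these cannot be told apart.

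The 153 transcripts were 1.71 to 6.37 log2 units higher in qRG, with a median of 2.73, and 136 of them rose by at least 2 and 28 by at least 4. The median log2 fold change of all tested transcripts was -0.27 in this fit. It ranged from -0.80 with scaling by library size alone to 0.08 without activated libraries 3, 4 and 6. How far the members stand from the bulk of the transcriptome thus depends on the scaling and the libraries. Mean levels of the 153 ranged from 3.49 to 1946 CPM in qRG (median 43.1) and from 0.0866 to 44.1 CPM in the activated group (median 6.44). No member was at 0 in all 6 activated libraries, and only 2 had a count of 0 in at least 1 of them. Together they took 1.33%, 1.75% and 1.47% of the reads in qRG replicates 1, 2 and 3, against 0.115% to 0.261% in the activated libraries. Reads on the 153 as a set were thus present in every activated library, at a smaller share than in qRG, where they were called higher.

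For 152 of the 153, the 3 qRG libraries all lay above the 6 activated libraries. Such a clean order was found for 926 of the tested transcripts (3.33%). The 153 were called from these same libraries, so their order and the gap between the groups largely follow from the call. The lowest qRG library exceeded the highest activated library by a median of 2.87-fold over the 153 and by at least 10-fold in 18 of them. The exception was ENSDART00000111289 (chr11:24246556-24248357, minus strand), at 14.4, 24.7 and 3.20 CPM in qRG replicates 1, 2 and 3 against up to 3.92 CPM in the activated libraries. The activated library that came closest to qRG was library 5 for 50 of the 153, library 6 for 27, library 4 for 25, library 1 for 24, library 2 for 18 and library 3 for 9. No single activated library was therefore the nearest one throughout. The SD of log2 CPM among the activated libraries exceeded that among the qRG libraries in 115 of the 153, and in 82.7% of all tested transcripts.

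**Figure D2:**
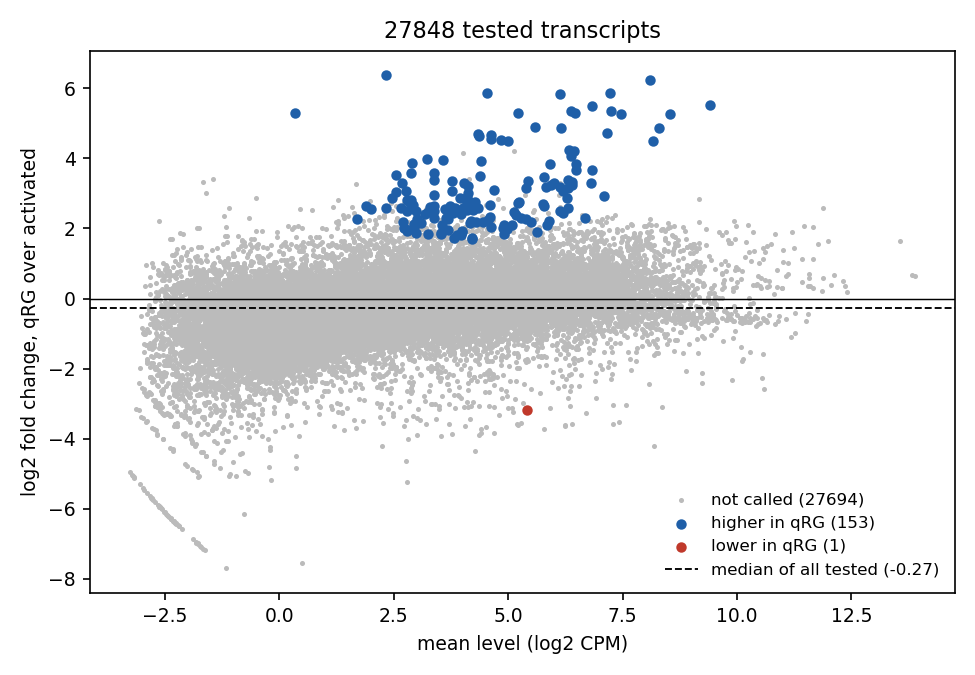
Log2 fold change of qRG over activated against the mean level in log2 CPM for the 27848 tested transcripts, with the 153 called higher in blue, the 1 called lower in red and the median of all tested (-0.27) as a dashed line. The transcripts called higher begin at a log2 fold change of 1.71. Many grey points, above 0 as well as below it, lie as far out without passing the test.

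The share of higher among the calls differed between tests, scalings and sets of libraries. DESeq2 called 322 transcripts higher (1.65% of the 19472 it tested) and 102 lower (0.524%), so that 75.9% of its calls were higher in qRG against 99.4% with edgeR, and 152 of the 153 were among them. Scaling by library size alone gave 134 higher, of which 69 were among the 153, and 95 lower. The test of limma-voom with sample quality weights gave 4554 higher and 3854 lower. That last fit gave activated libraries 1, 2 and 5 weights of 0.246, 0.235 and 0.175, where the other libraries had 1.03 to 4.66. Without activated libraries 3, 4 and 6, edgeR called 272 transcripts higher and 328 lower, and without activated libraries 1, 2 and 5 it called 5231 and 6234. Of all tested transcripts, 175 were called higher in both of these smaller comparisons, and 121 of the 153 were among them. Both comparisons reuse the 3 qRG libraries and activated libraries from which the 153 were called, so this overlap is no independent support. The excess of higher over lower calls was thus not kept when either set of activated libraries was left out. As the groups do not overlap for 152 of the 153, leaving out libraries could not turn the direction of those.

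The number of calls also rested on single libraries. Leaving out qRG replicate 1, 2 or 3 left 89, 75 and 70 transcripts higher, and leaving out activated library 3 left 101. Without activated library 1, 245 were higher.

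The 3 members with the highest mean level in qRG were 4.86 to 5.53 log2 units higher in qRG. ENSDART00000051533 (chr5:24937056-24949033, minus strand, 1717 bp in 8 exons) stood at 2294, 2013 and 1532 CPM in qRG replicates 1, 2 and 3. In the activated libraries it ranged from 10.1 to 96.5 CPM, with a median of 29.7. The groups did not overlap, and the log2 fold change was 5.53 ± 0.70 (SE, edgeR adjusted p = 0.000853). ENSDART00000109251 (chr2:44320983-44344410, minus strand, 2344 bp in 6 exons) had 1370, 923 and 875 CPM in qRG and 8.61 to 66.5 CPM (median 17.5) in the activated libraries, a log2 fold change of 5.26 ± 0.67 (edgeR adjusted p = 0.000965). ENSDART00000126737 (chr7:40087926-40089040, minus strand, 904 bp in 3 exons) had 1012, 740 and 887 CPM in qRG and 13.4 to 55.6 CPM (median 24.6) in the activated libraries, a log2 fold change of 4.86 ± 0.59 (edgeR adjusted p = 0.000642). All 3 were highest in activated library 6 and next highest in library 5 among the activated libraries, and lowest in library 3. Per kb of transcript, their mean levels over the 9 libraries were 394, 158 and 347 CPM, where the median of the 153 was 10.1 and that of all tested transcripts 2.67. These means include the qRG libraries, in which the members were called higher.

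ENSDART00000051533 was 1 of the 8 members with the largest fold changes, and none of the 8 had exons that overlap another transcript. ENSDART00000155094 (chr25:7942838-7949653, minus strand, 772 bp in 4 exons) was also the fourth by mean level in qRG, at 877, 1052 and 493 CPM in qRG replicates 1, 2 and 3. The activated libraries held 3.84 to 19.2 CPM of it, with a median of 10.1, and the log2 fold change was 6.25 ± 0.62 (edgeR adjusted p = 0.000107). ENSDART00000001253 (chr10:13199890-13203157, minus strand, 990 bp in 4 exons) had 376, 554 and 376 CPM in qRG and 4.09 to 12.6 CPM (median 7.21) in the activated group, a difference of 5.86 ± 0.50. ENSDART00000132741 (chr21:19729380-19743166, plus strand, 2612 bp in 18 exons) had 352, 454 and 169 CPM in qRG and 4.93 to 8.80 CPM (median 7.43) in the activated group, a difference of 5.50 ± 0.47. For this transcript the qRG libraries spread more than the activated ones, with SDs of 0.74 and 0.33 on the log2 scale. ENSDART00000112979 (chr3:2551636-2560717, plus strand, 3205 bp in 4 exons) had 246, 266 and 199 CPM in qRG and 3.10 to 7.91 CPM (median 6.0) in the activated group, a difference of 5.36 ± 0.46. ENSDART00000150830 (chr4:7348450-7387832, plus strand, 836 bp in 4 exons) had 196, 279 and 131 CPM in qRG and 1.71 to 4.85 CPM (median 3.70) in the activated group, a difference of 5.85 ± 0.49. These last 4 shared an edgeR adjusted p of 2.79e-05, the smallest of the fit.

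The other pair among the largest fold changes lay close together on chromosome 8, and each of the pair is annotated as a single exon. ENSDART00000074125 (chr8:42369698-42370786, minus strand, 1089 bp) had the largest fold change of all, 6.37 ± 0.83 (edgeR adjusted p = 0.00107). It stood at 16.1, 15.7 and 12.3 CPM in qRG replicates 1, 2 and 3, from 556, 628 and 563 reads, and at 0 to 0.543 CPM in the activated libraries, from at most 28 reads. ENSDART00000114915 (chr8:42525620-42527098, minus strand, 1479 bp) had 89.3, 58.1 and 55.2 CPM in qRG and 0.598 to 1.82 CPM (median 1.09) in the activated libraries, a difference of 5.88 ± 0.46 (edgeR adjusted p = 2.79e-05). Both lie on the minus strand, 154834 bp apart, with no tested transcript that starts between them. With scaling by library size alone, ENSDART00000074125 had an adjusted p of 0.0594, while ENSDART00000114915 passed the threshold in each of the 23 alternative fits.

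**Figure D3:**
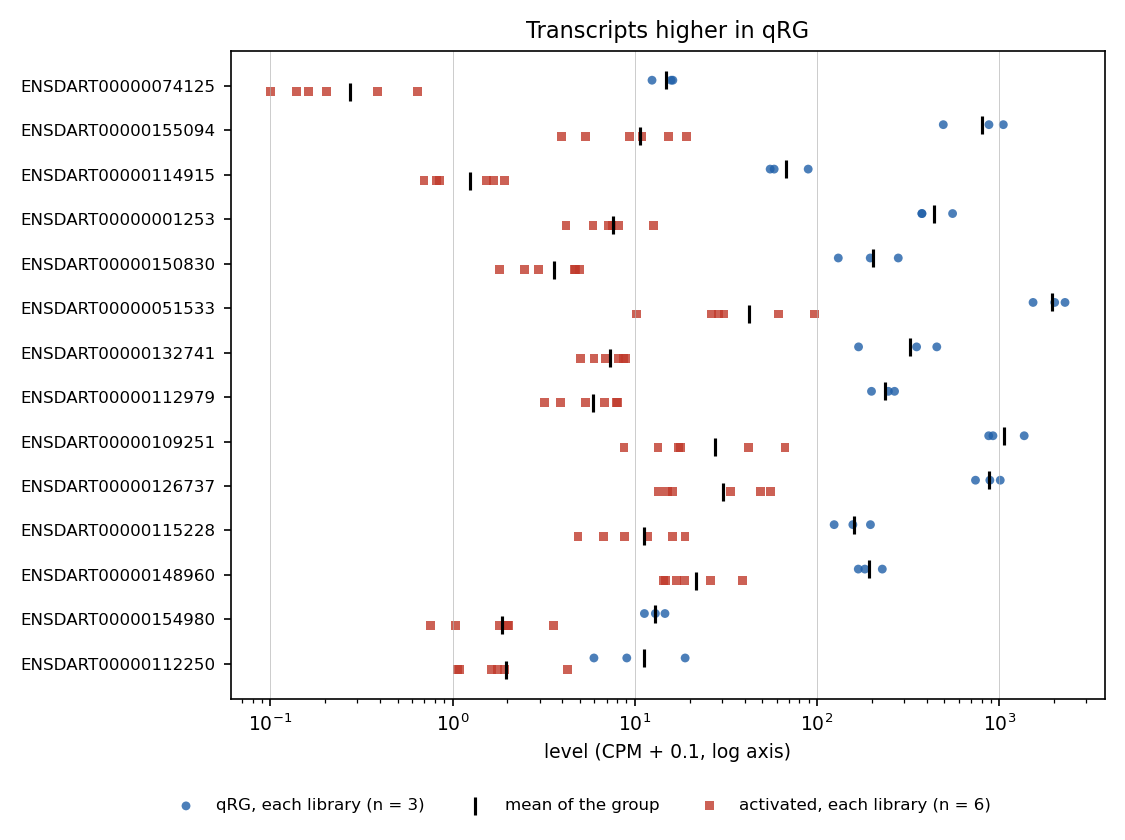
Level of 14 transcripts higher in qRG in each library, as CPM + 0.1 on a log axis, with qRG replicates in blue, activated libraries in red and a bar at the mean of each group. No red point reaches a blue one in any row, because the rows were chosen among transcripts whose groups do not overlap. The gap was wide for ENSDART00000114915 (lowest qRG library at 55.2 CPM, highest activated library at 1.82 CPM) and narrowest for ENSDART00000112250 (5.87 and 4.16 CPM).

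Among the members with a mean of at least 1 log2 CPM, the 2 longest and the 2 shortest by annotated length are given next. The shortest of all 153, ENSDART00000116152 (91 bp, a single exon on chromosome 10), had a mean of only 0.34 log2 CPM and a log2 fold change of 5.30 ± 0.97 (edgeR adjusted p = 0.0193). ENSDART00000115228 (chr8:37792208-37912576, plus strand, 8941 bp in 16 exons) had 157, 196 and 124 CPM in qRG replicates 1, 2 and 3 and 4.78 to 18.7 CPM (median 10.2) in the activated group, a log2 fold change of 3.84 ± 0.47 (edgeR adjusted p = 0.000642). Its activated libraries 3, 4 and 6 were the highest ones, and with scaling by library size alone its adjusted p was 0.0623. ENSDART00000148960 (chr16:31667957-31712330, minus strand, 8240 bp in 10 exons) had 168, 183 and 228 CPM in qRG and 14.2 to 38.9 CPM (median 17.8) in the activated group, a difference of 3.17 ± 0.43 (edgeR adjusted p = 0.00161). Of the short ones, ENSDART00000154980 (chr4:11303403-11303684, plus strand, a single exon of 282 bp) had 14.5, 12.9 and 11.2 CPM in qRG and 0.660 to 3.47 CPM (median 1.81) in the activated group, a difference of 2.86 ± 0.49 (edgeR adjusted p = 0.0114). It lies 8732 bp beyond the end of another member on the same strand, ENSDART00000036779, whose exons overlap those of a further transcript. Between the start coordinates of this pair, 1 tested transcript that was not called starts. ENSDART00000112250 (chr19:50222655-50228069, plus strand, 415 bp in 2 exons) had 5.87, 8.93 and 18.8 CPM in qRG and 0.960 to 4.16 CPM (median 1.60) in the activated group, a difference of 2.59 ± 0.54 (edgeR adjusted p = 0.0437). It missed the threshold in 12 of the 23 alternative fits.

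In the medians of their annotated features the 153 were close to all tested transcripts, while spans of at least 200 kb were more frequent among them. Their median length was 1905 bp against 1671 bp, their median span in the genome 13457 bp against 11556 bp, and their median number of exons 5 against 6. Single-exon transcripts made up 5.88% of the 153 and 6.28% of all tested, and 45.1% and 50.4% lay on the plus strand. Over the 9 libraries the 153 had a median level of 4.27 log2 CPM against 2.32, but this includes the qRG libraries in which they were called higher. Within single activated libraries the median of the 153 was 2.53 to 2.81 log2 CPM, against 1.73 to 2.59 for all tested. The level of a transcript also sets how small a difference the test can call. Of the 153, 7 (4.58%) spanned at least 200 kb of the genome, against 1.43% of all tested. Exons that overlap those of another transcript occurred in 12 members (7.84%) and in 8.17% of all tested. Since the counting was not set to use strand, the values of these 12 are uncertain, among them ENSDART00000124770 on chromosome 1 (log2 fold change 5.26) and ENSDART00000154708 on chromosome 5 (4.70).

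The members came from all 25 chromosomes. Chromosome 8 held 12 of them among 1133 tested transcripts (1.06%), where members made up 0.549% of all tested transcripts. Chromosomes 9 and 21 held 10 each, among 1027 and 999 tested transcripts. Chromosomes 17 and 22 held 2 each, among 998 and 1101 tested transcripts. Whether the members were spread unevenly over the chromosomes was not tested. None of the 13 mitochondrial transcripts was called. No run of 3 or more neighbouring tested transcripts was called, and 4 pairs of direct neighbours lay within 100 kb of each other. The closest was on chromosome 21, where ENSDART00000132741 ends 168 bp before ENSDART00000138155 (chr21:19743334-19760478, minus strand), whose exons run toward it from the other strand. ENSDART00000138155 had 23.0, 44.3 and 14.6 CPM in qRG replicates 1, 2 and 3 and 1.84 to 7.06 CPM in the activated group, so that it followed the same order of qRG replicates at a lower level. On chromosome 25, ENSDART00000128820 (chr25:7935347-7942022, plus strand) ends 816 bp before the start coordinate of the convergent ENSDART00000155094. It had 80.7, 94.8 and 55.5 CPM in qRG, again in the order of its neighbour, and 9.57 to 29.0 CPM in the activated group. Both members of these pairs end toward each other, and reads that run past an annotated end cannot be assigned by strand in these counts. The order of qRG replicates in these pairs was not particular to neighbours. It was also seen in members on other chromosomes, such as ENSDART00000150830 and ENSDART00000112979.

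The other neighbours lay on one strand each. On chromosome 9, ENSDART00000102715 (chr9:7704154-7715372) and ENSDART00000016360 (chr9:7719653-7725518) are both on the minus strand, 4281 bp apart. The former had 405, 444 and 353 CPM in qRG replicates 1, 2 and 3 and 8.89 to 20.4 CPM in the activated libraries. The latter had 26.8, 29.8 and 23.0 CPM in qRG and 1.35 to 3.22 CPM in the activated libraries. Their log2 fold changes were 4.73 and 3.58. The fourth pair, ENSDART00000053203 and ENSDART00000011453 on the minus strand of chromosome 8, lay 58688 bp apart with log2 fold changes of 1.85 and 2.44. A further pair on chromosome 9, ENSDART00000147795 (chr9:33761961-33763795) and ENSDART00000060006 (chr9:33784736-33786843), had 1 tested transcript between them and fold changes of 5.29 and 3.68.

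Only 1 transcript was called lower in qRG. ENSDART00000002078 (chr12:15799599-15802466, minus strand, 1604 bp in 2 exons) had 6.82, 3.50 and 9.61 CPM in qRG replicates 1, 2 and 3. In the activated libraries it ranged from 26.5 to 134 CPM, with a median of 46.8 and the highest level in library 5. The log2 fold change was -3.19 ± 0.64 (edgeR adjusted p = 0.0356), and it missed the threshold in 6 of the 23 alternative fits, among them those without any 1 of the 3 qRG replicates (adjusted p = 0.152 to 0.315). With the replicate number as a block, the log2 fold change was -2.90 and the adjusted p 0.0662. Without activated library 4, 14 transcripts were called lower.

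A wider set of transcripts lay below the activated range in qRG, and all but ENSDART00000002078 of them missed the threshold. In 527 tested transcripts (1.89%), all 3 qRG libraries were below all 6 activated libraries, and 101 of them had a log2 fold change of -2 or less. The median fold change of the 527 was -1.29 and their adjusted p ran from 0.0356 to 0.937. When activated libraries 3, 4 and 6 or activated libraries 1, 2 and 5 were left out, 52 transcripts were called lower in qRG in both of these smaller comparisons, and 48 of the 52 were below the whole activated range. Both comparisons use the same 3 qRG libraries.

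The 8 transcripts with the smallest p among those below the activated range, apart from the 1 called, were chosen after their values had been seen and had adjusted p of 0.0539 to 0.0804 in edgeR. ENSDART00000007206 (chr19:839738-853794, minus strand, 2409 bp in 7 exons) had 25.7, 26.2 and 28.9 CPM in qRG replicates 1, 2 and 3 and 64.6 to 399 CPM (median 199) in the activated libraries. ENSDART00000011837 (chr9:45357658-45361008, minus strand, 2422 bp in 2 exons) was the most abundant, with 49.5, 50.5 and 62.1 CPM in qRG and 141 to 854 CPM (median 352) in the activated libraries. ENSDART00000058685 (chr16:46672695-46980190, minus strand, 3429 bp in 8 exons) had 14.3, 13.4 and 18.8 CPM in qRG and 41.2 to 216 CPM (median 92.6) in the activated libraries. For these 3, the qRG libraries agreed within an SD of 0.26 on the log2 scale, where the activated libraries had SDs of 0.88 to 0.96 with library 4 the lowest and library 5 the highest. ENSDART00000054736 on chromosome 23 was alike, at 14.1 to 23.3 CPM in qRG and 46.3 to 201 CPM in the activated libraries, but its single exon overlaps another transcript. ENSDART00000131919 (chr20:35038042-35064649, minus strand, 5081 bp in 11 exons) was more even, at 4.57, 3.63 and 3.57 CPM in qRG and 8.96 to 17.3 CPM (median 12.4) in the activated libraries. The others, all on chromosome 12, were ENSDART00000041728, ENSDART00000153199 and ENSDART00000153194, with log2 fold changes of -2.54, -1.86 and -2.04.

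**Figure D4:**
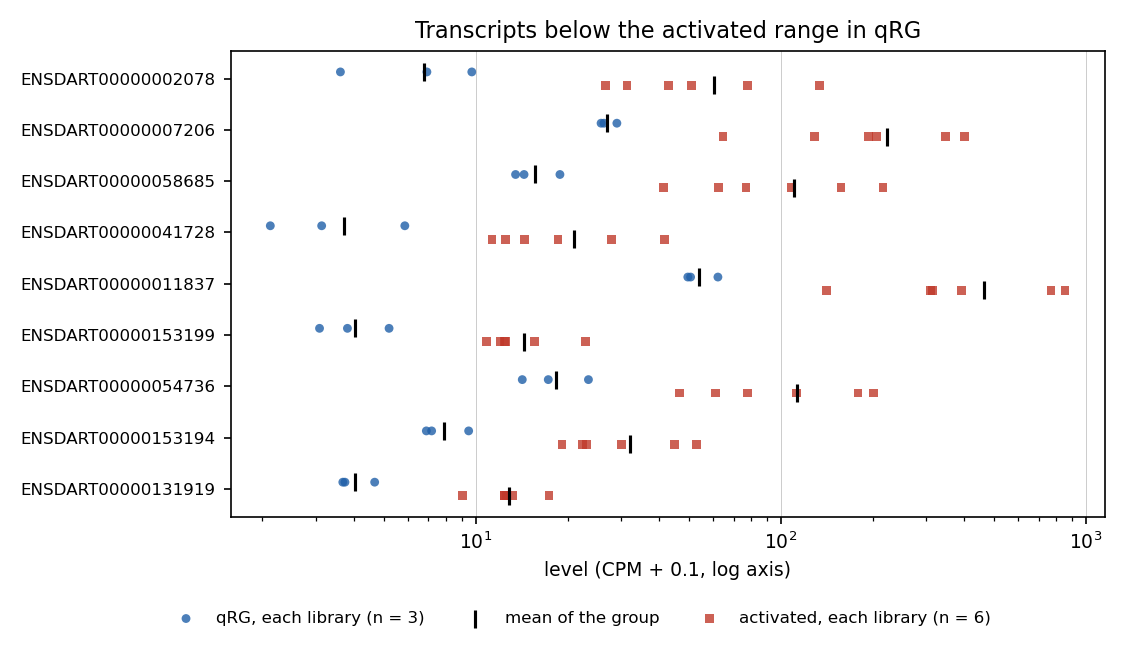
Level of 9 transcripts in each library, as CPM + 0.1 on a log axis, with qRG replicates in blue, activated libraries in red and a bar at the mean of each group; the top row is the 1 transcript called lower in qRG. In every row the 3 qRG points lie left of the 6 activated points, because the rows were chosen among transcripts below the activated range. The activated points spread widely, as for ENSDART00000007206 from 64.6 to 399 CPM.

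In larval radial glia, the transcripts higher in adult qRG were well expressed, and some were lower in notch3-/- larvae. These libraries played no part in choosing the members. Pairs of a notch3-/- and a notch3+/+ library were formed by replicate number, and no label says that same-numbered libraries were sorted together. In 152 of the 153, reads were counted in all 6 larval libraries, and the median level in notch3+/+ was 4.87 log2 CPM, against 1.57 for all tested transcripts. The median difference between notch3-/- and notch3+/+ was -0.04 log2 units, at 0.06, -0.17 and -0.11 in the pairs of replicates 1, 2 and 3, and 0.004 for all tested transcripts. The members thus did not move one way as a list. In all 3 pairs, 57 of the 153 (37.3%) were lower in notch3-/- and 44 (28.8%) higher, where 12.9% and 12.7% of all tested transcripts were. The members also had a higher level than all tested transcripts, and the part of level in these shares was not tested.

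Of the members, 13 (8.50%) were lower in notch3-/- by at least 1 log2 unit in every pair, against 0.722% of all tested. As many as 0 members were higher by as much in every pair, against 0.840% of all tested transcripts. In notch3+/+ larvae, 1.31% of the 153 lay below 1 CPM, against 32.0% of all tested transcripts. The shares thus compare transcripts of unlike level, and the part of level in them was not tested. The 3 members with the highest mean level in adult qRG were among the 13. ENSDART00000051533 had 1087, 754 and 713 CPM in notch3+/+ replicates 1, 2 and 3 and 197, 84.5 and 245 CPM in notch3-/-. For ENSDART00000109251 and ENSDART00000126737 the mean differences were -2.24 and -2.15. ENSDART00000052556 (chr19:22298344-22316769, minus strand) had the largest difference, -2.59, with -2.79, -2.95 and -2.05 in the pairs of replicates 1, 2 and 3. In the adult it had 1058, 672 and 651 CPM in qRG and 15.7 to 52.4 CPM in the activated libraries. ENSDART00000011737 (chr15:41987581-42013228, plus strand) had a mean difference of -2.06 in the larva and 465, 492 and 348 CPM in adult qRG against 6.73 to 20.1 CPM in the activated libraries. The 8 members with the largest adult fold changes were not alike in the larva. ENSDART00000155094, ENSDART00000001253, ENSDART00000150830 and ENSDART00000112979 were also lower in notch3-/- in all 3 pairs, with mean differences of -0.55, -0.85, -1.35 and -0.78. ENSDART00000132741 had differences of 0.37, -1.27 and -0.21 in the pairs of replicates 1, 2 and 3. ENSDART00000114915 was higher in notch3-/- by 0.86, 1.19 and 0.16 in the 3 pairs, and ENSDART00000074125 had differences of -0.35, -0.58 and 0.74.

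**Figure D5:**
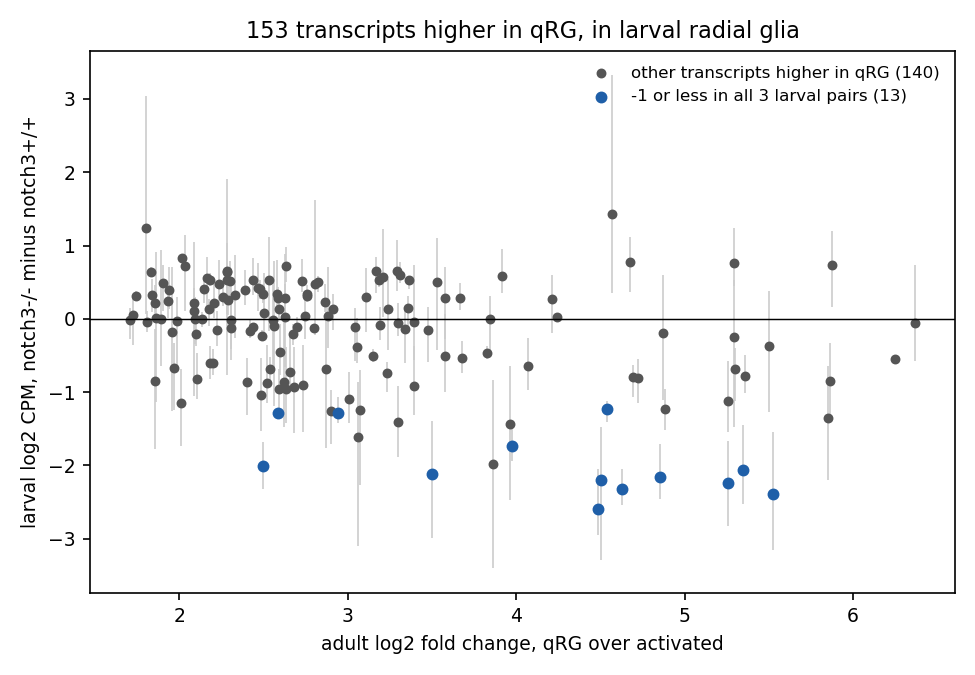
Difference in log2 CPM between notch3-/- and notch3+/+ larval radial glia against the adult log2 fold change for the 153 transcripts higher in qRG; points are means of 3 pairs and grey bars run from the lowest to the highest pair. Points lie on both sides of 0 (median -0.04), and the 13 in blue were at -1 or less in each pair, the lowest being ENSDART00000052556 at -2.59.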

How the data were processed

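Libraries were grouped by the cell type of their labels. The authors aligned the reads to Zv9 with TopHat2 and Ensembl 78 gene models, kept unique alignments, and deposited raw counts per transcript (30279 rows, 383 at 0 in all adult libraries). Per the file headers, featureCounts 1.5.0 was run without options for read pairs or strand, so mates were counted singly. The qRG columns were taken by name.

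Counts were tested in R 4.3.3 with edgeR 4.0.16 (TMM, filterByExpr, glmQLFTest, Benjamini-Hochberg threshold 0.05, no covariate). SEs were derived from the F statistics. CPM of transcripts are TMM-scaled, and log2 CPM use a prior count of 2. The number of transcripts at 1 CPM or more in each adult library was taken before TMM scaling. DESeq2 1.42.0 and limma 3.58.1 gave alternatives, and GenomicRanges 1.54.1 the overlaps of exons.

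The comparison and its lists were chosen with earlier results of these data known. Transcripts described were, per direction, those called with a mean of at least 1 log2 CPM and no overlap between groups: the 8 largest fold changes, 4 highest levels, 2 longest and 2 shortest. Those in neighbouring pairs, those with larval differences and 8 lower ones were chosen after their values were seen. Marker lists could not be used, since 0 identifiers had gene names. Alternatives changed the normalization, filter, test, threshold and libraries, or halved all counts. Those with library size alone, limma-voom without weights, or 3 activated libraries left out were added after seeing the data.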

Additional observations from a re-analysis of the deposited data

How the results depend on the processing

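Leaving out 1 library moved the number of transcripts called in either direction between 70 and 249, those higher in qRG between 70 and 245 and those lower between 0 and 14. The fits without 1 qRG library called 0 lower in edgeR, at 1302 to 1813 transcripts with an unadjusted p under 0.05 in either direction. DESeq2 called 424 (322 higher, 102 lower), limma-voom with sample quality weights 8408 (4554 and 3854), a threshold of 0.01 kept 79 (79 and 0), and library size alone gave 134 higher (69 of them among the 153) and 95 lower. Without activated libraries 3, 4 and 6 there were 600 calls (272 and 328), and without 1, 2 and 5 there were 11465 (5231 and 6234). Lower calls were 3 with the robust fit, 3 with counts halved and 7 with limma-voom without weights. DESeq2 size factors in edgeR, the other filters and the fit without overlapping transcripts gave 140 to 155 higher and 1 lower.

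With the replicate block, 156 transcripts were higher (137 of them among the 153) and 1 lower, a different one. Deviations from the group mean were correlated between qRG and activated libraries. With the same-numbered qRG library, activated libraries 1 to 6 had values of 0.127, 0.0842, 0.215, -0.118, 0.00209 and 0.173. Differently numbered libraries had values of -0.196 to 0.185, most of them below 0. The main fit did not take the numbers as pairs. As the names of the activated columns may be mixed up, these values cannot tell whether same-numbered libraries share a pool of fish. Over all alternatives, the 15 transcripts chosen by rule stayed past the threshold in 321 cases and lost it in 24, and as they were chosen for groups that do not overlap, their direction says nothing of stability. The median larval difference of the 153 lay between -0.11 and 0.0019 with 1 larval replicate left out, and was above 0 only without replicate 2. The first component held 55.6% with 2000 transcripts and 60.4% after variance stabilization. With counts halved, 159 transcripts were higher. Halving acts on all libraries alike, so the effect of their unequal depth was not tested by it. Gene identities were not analysed here.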
